A study of Mus musculus with 15 samples.

Results

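The 47 genes described here encode the enzymes, transporters and regulators of glycolysis, gluconeogenesis, glycogen and pyruvate metabolism. They were taken by name from a written list, and all 47 were found among the 21755 protein-coding genes annotated on chromosomes 1 to 19 and X of mm10. The trimethylation of histone H3 at lysine 4 (H3K4me3) was measured by PAT-ChIP-seq, which is chromatin immunoprecipitation and sequencing from formalin-fixed, paraffin-embedded tissue, in the livers of 15 C57BL/6 female mice (C57BL/6J in the study's methods) with 1 library per mouse. The 5 diets, with 3 mice each, were the standard diet (SD), caloric restriction (CR), a high-fat diet (HF), yellow corn (YD) and purple corn (RD), and all but CR were given ad libitum. Purple corn holds anthocyanins and yellow corn, from a near-isogenic line, does not. Feeding began at 3 months of age and lasted 10 months, the labels give an age of 12 months, and no allele or drug set the groups apart. The chromatin came from whole sections of liver, so every library mixes hepatocytes with the other cells of the organ, and fewer cells of a type and less of the mark per cell cannot be told apart. Each library was represented by the list of its enriched regions, called islands, and a gene counted as marked in a library when an island lay within 1 kb of any of its annotated transcription start sites (TSSs).

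H3K4me3 is deposited around the TSSs of genes that are transcribed or poised for transcription. In the liver, glycolysis breaks glucose down to pyruvate in the fed state, and gluconeogenesis runs the pathway in reverse to release glucose during fasting. Most steps are shared, and separate enzymes stand at the irreversible ones, with pyruvate kinase (Pklr) in one direction and pyruvate carboxylase (Pcx), phosphoenolpyruvate carboxykinase (Pck1), fructose-1,6-bisphosphatase (Fbp1) and glucose-6-phosphatase (G6pc) in the other. Pyruvate itself enters mitochondria through the carrier formed by Mpc1 and Mpc2 and is oxidised by the pyruvate dehydrogenase complex, which the kinases Pdk1 to Pdk4 switch off.

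The promoters of 8 of these genes are printed because the differences in presence turned on the first 5 of them, while the other 3 were marked in 14 or 15 libraries. Each sequence is the 250 bases upstream of a RefSeq start in mm10, written 5′ to 3′ on the strand of the gene, with every CpG in capitals. They show that the printed sequences of Pck1, Fbp1 and Pklr hold few CpGs, whereas that of hexokinase 2 (Hk2) is CpG-dense. Other gluconeogenic genes varied in the 300 bases around a start, with 4 CpGs at G6pc, 9 at Pck2 and 3 to 18 at Slc37a4. The Pcx starts had 20 and 5, and those of the pyruvate kinase gene Pkm had 27 and 23.
Pck1, chr2:173152823-173153072, plus strand: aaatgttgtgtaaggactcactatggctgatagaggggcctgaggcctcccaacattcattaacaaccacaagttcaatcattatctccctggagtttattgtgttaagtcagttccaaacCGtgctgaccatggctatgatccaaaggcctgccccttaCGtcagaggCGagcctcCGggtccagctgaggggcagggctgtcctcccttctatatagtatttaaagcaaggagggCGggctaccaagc
Pklr, chr3:89135892-89136141, plus strand: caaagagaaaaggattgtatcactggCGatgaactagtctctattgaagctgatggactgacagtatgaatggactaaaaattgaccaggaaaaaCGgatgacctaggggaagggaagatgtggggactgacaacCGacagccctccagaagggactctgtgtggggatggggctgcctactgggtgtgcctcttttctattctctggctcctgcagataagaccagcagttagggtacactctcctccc
Acyp1, chr12:85280436-85280685, minus strand: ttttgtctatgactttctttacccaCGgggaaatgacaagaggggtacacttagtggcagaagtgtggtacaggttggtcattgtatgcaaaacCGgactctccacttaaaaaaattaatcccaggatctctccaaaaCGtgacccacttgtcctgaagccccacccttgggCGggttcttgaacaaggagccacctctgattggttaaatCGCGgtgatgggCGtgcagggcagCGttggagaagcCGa
Hk1, chr10:62340422-62340671, minus strand: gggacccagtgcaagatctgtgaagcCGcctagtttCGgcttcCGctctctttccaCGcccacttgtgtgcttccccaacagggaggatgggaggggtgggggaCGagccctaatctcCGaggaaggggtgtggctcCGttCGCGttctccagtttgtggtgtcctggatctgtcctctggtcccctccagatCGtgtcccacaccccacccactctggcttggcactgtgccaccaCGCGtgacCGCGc
Hk2, chr6:82774455-82774704, minus strand: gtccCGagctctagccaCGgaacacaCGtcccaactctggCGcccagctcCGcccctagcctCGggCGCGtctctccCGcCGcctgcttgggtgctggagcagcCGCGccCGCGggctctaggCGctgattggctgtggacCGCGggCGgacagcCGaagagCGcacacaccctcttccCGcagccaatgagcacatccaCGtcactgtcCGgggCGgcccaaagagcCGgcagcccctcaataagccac
Fbp1, chr13:62888283-62888532, minus strand: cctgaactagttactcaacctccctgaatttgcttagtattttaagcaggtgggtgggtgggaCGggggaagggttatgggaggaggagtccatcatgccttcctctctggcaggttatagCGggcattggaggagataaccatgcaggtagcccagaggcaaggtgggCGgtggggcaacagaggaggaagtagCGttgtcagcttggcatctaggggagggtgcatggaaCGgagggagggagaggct
Gapdh, chr6:125165774-125166023, minus strand: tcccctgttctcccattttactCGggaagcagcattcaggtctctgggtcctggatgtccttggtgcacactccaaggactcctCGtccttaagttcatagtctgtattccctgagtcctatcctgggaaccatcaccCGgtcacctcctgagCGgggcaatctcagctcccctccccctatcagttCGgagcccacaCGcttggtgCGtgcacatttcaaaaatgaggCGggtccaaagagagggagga
Mdh1, chr11:21571935-21572184, minus strand: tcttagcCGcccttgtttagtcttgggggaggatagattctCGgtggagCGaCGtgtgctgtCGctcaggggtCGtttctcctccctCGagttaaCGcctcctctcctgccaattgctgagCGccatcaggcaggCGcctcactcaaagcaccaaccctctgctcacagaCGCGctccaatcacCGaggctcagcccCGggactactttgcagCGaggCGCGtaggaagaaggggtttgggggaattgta
The 250 bases held 5 CpGs at Pck1, 3 at Pklr, 9 at Acyp1, 14 at Hk1 and 25 at Hk2. Fbp1 had 5 CpGs, Gapdh 8 and Mdh1 17.

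The lists held 7825 (YD_1) to 33752 (CR_3) islands, and the reads behind them, recovered from the steps of the island scores, ranged from 5.59 M in CR_1 to 15.45 M in YD_1 with a median of 9.55 M. The liver origin was visible in the lists, since 6 (YD_3) to 10 of 10 hepatocyte marker genes were marked. Of 28 marker genes of macrophages, endothelium, stellate cells and blood, 16 were marked in HF_1, 8 in HF_3, 6 in SD_1 and 5 in SD_3, while the other libraries had 0 to 3 and all YD libraries had 0. Macrophage markers had islands in HF_1 (4 of 8) and HF_3 (1 of 8) and in no other library, and biliary markers reached at most 2 of 5. RD_1, HF_2, HF_3, CR_1 and CR_2 have names of the PATChIP form, and the other 10 libraries, which include all of SD and YD, have the ChIP form. An absent island means that the caller found no enriched region there, not that the mark was absent.

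Every one of the 47 genes was marked in at least 2 libraries, whereas 40.0% of protein-coding genes were marked in none. All 15 libraries marked 10 of them (21.3%, against 9.46% of protein-coding genes), namely Pfkfb2, Aldoa, Gapdh, Eno1, Ldha, Dlat, Mdh1, Mdh2, Mpc1 and Mpc2. A further 9 genes missed an island in 1 library, and 6 were marked in only 2. The plot of island width by gene and library shows this gradient, with the pyruvate carrier, the malate dehydrogenases and enzymes such as Gapdh marked throughout, and with both isozymes of other tissues (Hk3) and liver genes (Gckr, Gys2) marked in 2 libraries.

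**Figure D1:**
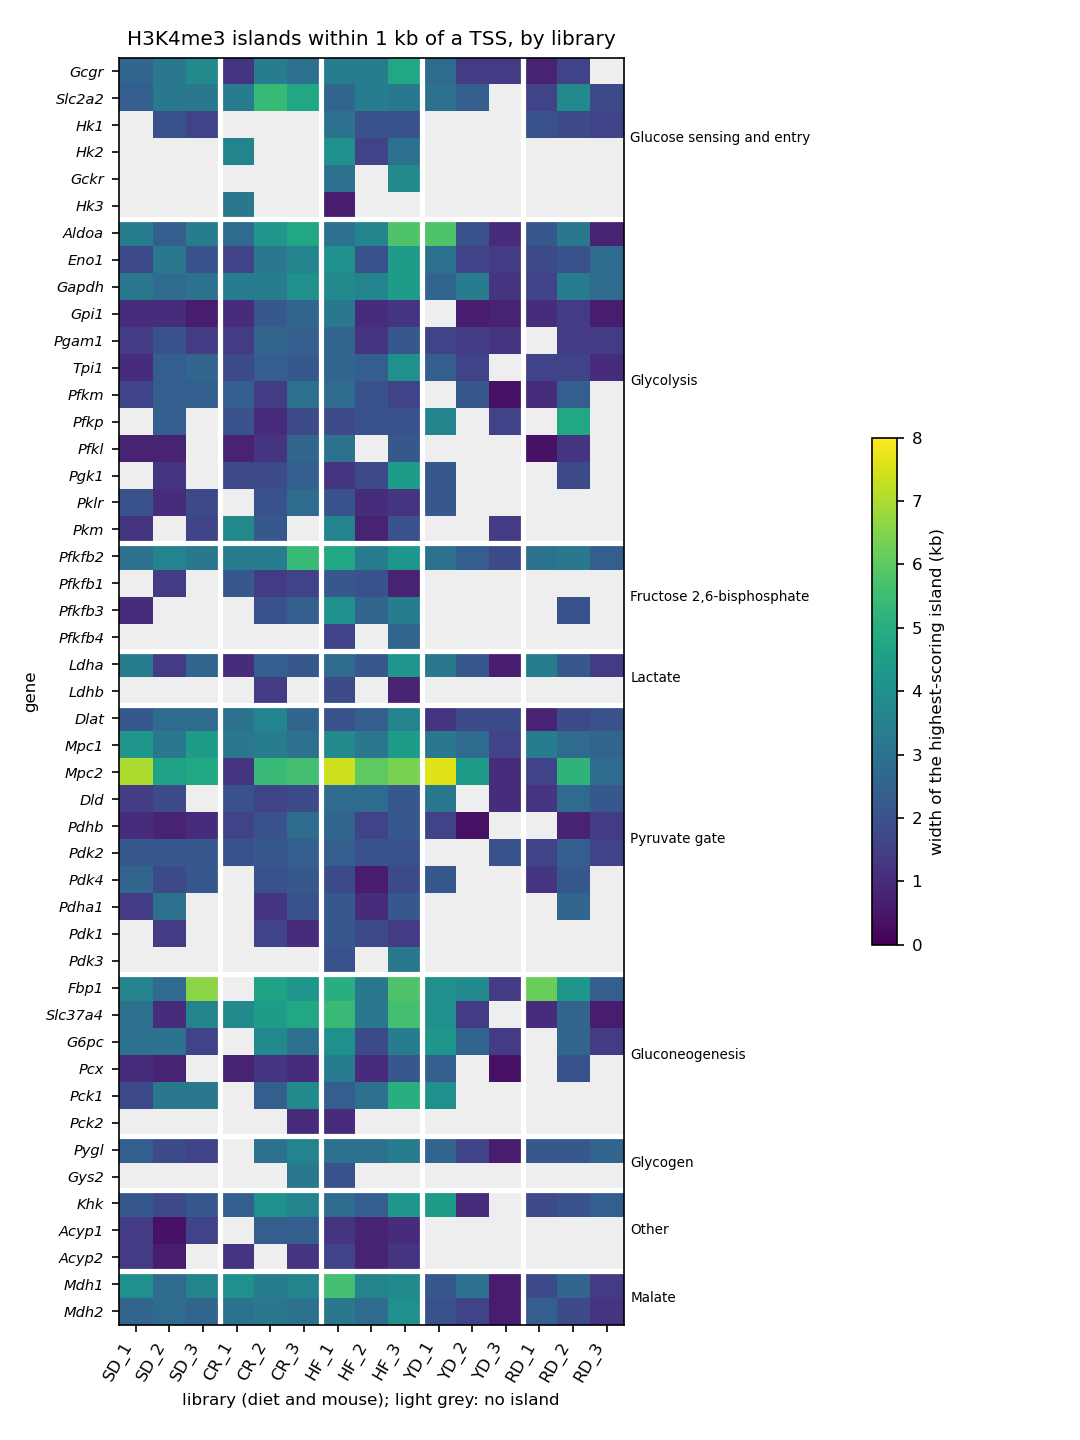
Width in kb (colour) of the highest-scoring H3K4me3 island within 1 kb of a TSS for each of the 47 genes (rows, by role) in each of the 15 libraries (columns, by diet), with light grey where no island was found. In the HF_1 column all 47 genes are marked, while Pck1, Pklr and Acyp1 are grey in all 3 RD columns.

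The SD libraries marked 34, 37 and 29 of the 47 genes, and the CR libraries 30, 38 and 39. The HF libraries marked 47, 39 and 44, the YD libraries 27, 22 and 22, and the RD libraries 24, 32 and 23. The HF mean was 43.3 ± 4.04, the CR mean 35.7 ± 4.93 and the SD mean 33.3 ± 4.04, and those of RD and YD were 26.3 ± 4.93 and 23.7 ± 2.89 (± is the standard deviation over 3 mice). Every HF library was at or above every library of the other diets, with HF_2 and CR_3 tied at 39, and every YD library was below every SD and CR library. As a share of the 47, the diets ran from 50.4% (YD) and 56.03% (RD) through 70.9% (SD) and 75.9% (CR) to 92.2% (HF), in the order of the shares of all protein-coding genes, which were 22.8%, 31.2%, 39.6%, 43.4% and 51.2%. When each list was cut to its 7825 highest-scoring islands, as many as the shortest list holds, the means drew together, with 30.3 genes in HF, 27.7 in CR and 26 in SD beside 20.3 in RD and 22.3 in YD. The shares of all protein-coding genes under this cut were 36.3% in HF, 32.1% in CR, 30.7% in SD, 21.3% in RD and 21.1% in YD. The means carry no p-value, because the genes were chosen with earlier results of these data known.

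**Figure D2:**
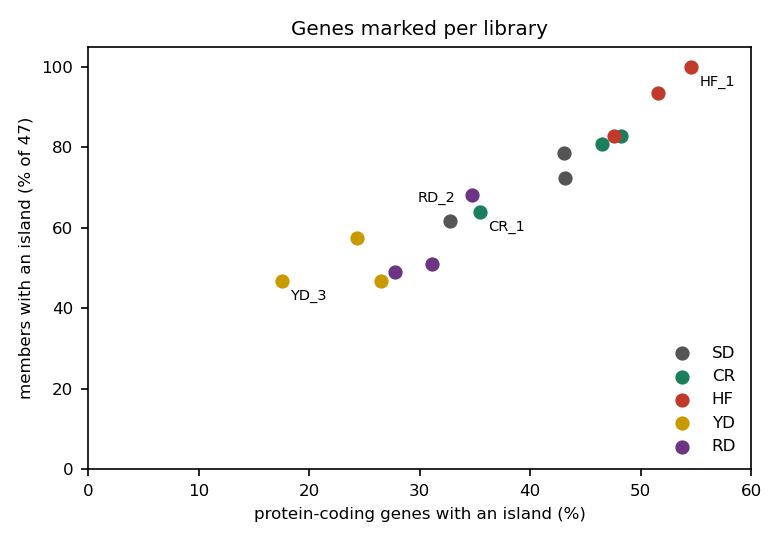
Share of the 47 genes with an island (vertical axis, %) against the share of all 21755 protein-coding genes with an island (horizontal axis, %) in each of the 15 libraries, coloured by diet. Both axes start at 0, and the libraries run from YD_3 at 17.5% of all genes to HF_1 at 54.6%, where every one of the 47 genes is marked.

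Among the gluconeogenic genes, Pck1 was the one marked in all 3 SD mice and in no RD mouse. Pck1, which makes phosphoenolpyruvate from oxaloacetate and is the classical fasting-induced gene of the pathway, had islands of 1800, 3200 and 3200 bp in the SD mice and of 2400, 3000 and 5000 bp in the HF mice. The CR mice had none, 2400 and 3800 bp, YD had 4000 bp in YD_1 alone, and no RD mouse had an island. SD and RD therefore did not overlap, but the gene was also unmarked in CR_1, YD_2 and YD_3, and the nearest island to the Pck1 start in the RD lists lay 65128 to 217528 bp away. Where present, the island ran downstream from the start, as in SD_2, where it covered chromosome 2 from 173153001 to 173156200. Its score stood at the 51.2, 83.3 and 93.1 percentile of the islands in the 3 SD lists.

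The other gluconeogenic genes did not share this pattern. Fbp1 was marked in 14 libraries, CR_1 being the exception, with a median width of 4100 bp (1400 to 6600 bp), and the RD islands of 6200, 4200 and 2400 bp lay within the range of the SD islands of 3600, 2800 and 6600 bp except for the narrowest. G6pc, which releases free glucose from glucose 6-phosphate, lacked an island in CR_1 and RD_1 and had a median of 3000 bp (1400 to 4200 bp) elsewhere. None of its islands covered its annotated TSS at 101367561 on chromosome 11, since each began 240 to 840 bp downstream. Slc37a4, the transporter that carries glucose 6-phosphate to that enzyme, lacked an island in YD_3 alone and ranged from 600 to 5600 bp. Pcx, which makes oxaloacetate from pyruvate, was marked in 11 libraries, namely those of all 3 CR and all 3 HF mice, 2 SD, 2 YD and 1 RD mice, with narrow islands of a median of 1000 bp. Pck2, the mitochondrial carboxykinase, had an island of 1000 bp in CR_3 and in HF_1 and none elsewhere. Over the 6 genes, the share of gene and mouse pairs with an island was 88.9% in HF, 77.8% in SD, 72.2% in CR, 61.1% in YD and 50% in RD.

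In glycolysis, 6 of the 12 genes were marked in 14 or 15 libraries, and the pyruvate kinase genes were in 8 or 9. Pklr, the liver and red-cell pyruvate kinase, had islands of 2000, 1000 and 1800 bp in SD, of 2000, 1000 and 1200 bp in HF, and of 2000 and 2800 bp in CR_2 and CR_3. It had 2200 bp in YD_1, and none in CR_1, YD_2, YD_3 or any RD mouse, which are the same 6 libraries that lacked an island at Pck1. The SD islands at Pklr were of low rank, at the 36.1, 26.3 and 16.4 percentile of their lists. No Pklr island covered the start printed above, at 89136142, since they began 59 to 459 bp downstream of it. Each covered a second RefSeq start of the gene, at 89136623, with 8 CpGs in the 300 bases around it. Pkm, the pyruvate kinase of most other tissues, was marked in 2 SD, 2 CR, 3 HF, 1 YD and 0 RD mice. Of the steps between, Gapdh, Eno1 and Aldoa were marked in all 15 libraries, and Gpi1, Tpi1 and Pgam1 missed YD_1, YD_3 and RD_1 respectively. The phosphofructokinase subunits differed, with Pfkm marked in 13 libraries, Pfkp in 10 and the liver subunit Pfkl in 9, none of them YD. The island at Pfkm also lay at a TSS of the neighbouring gene Senp1 in all 13. The X-linked Pgk1 was marked in 9 libraries, among them all 3 CR and all 3 HF. For the 12 glycolytic genes the share of pairs was 97.2% in HF, 94.4% in CR, 83.3% in SD and 63.9% in both YD and RD.

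**Figure D3:**
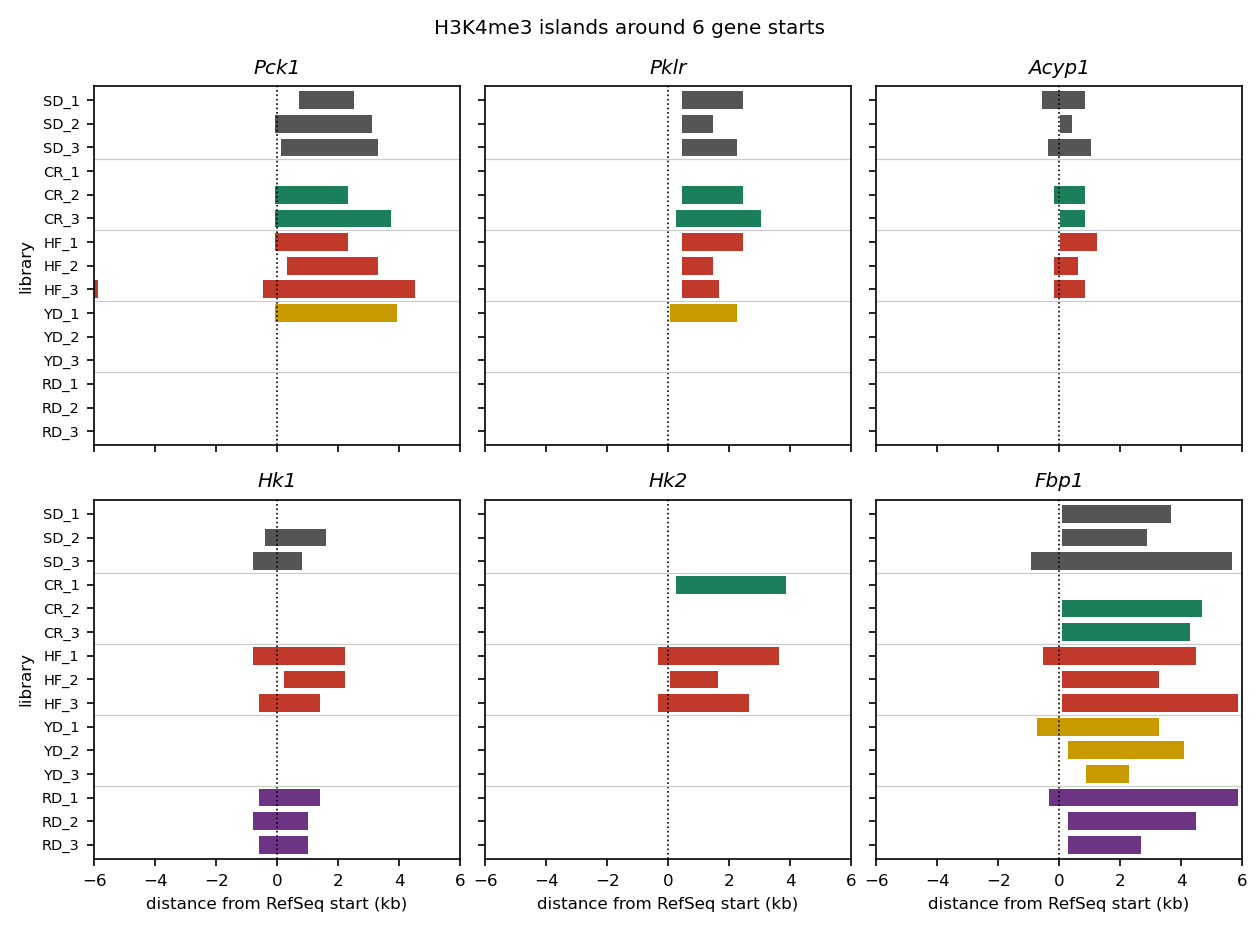
Islands (bars, coloured by diet) around the RefSeq starts of Pck1, Pklr, Acyp1, Hk1, Hk2 and Fbp1 in the 15 libraries, drawn by distance from the start in kb, with the gene running to the right and a dotted line at 0. The bars of Pck1 and Pklr lie mostly downstream of the start and are missing in CR_1, YD_2, YD_3 and the 3 RD libraries, whereas Fbp1 is missing in CR_1 alone. A second Pklr start, at 89136623, lies downstream of the one drawn and inside every Pklr bar.

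The genes of glucose entry and sensing were marked in 2 to 14 libraries. Slc2a2, which encodes the hepatocyte glucose transporter, lacked an island in YD_3 alone and had a median width of 3200 bp (1600 to 5400 bp), and Gcgr, the glucagon receptor, lacked one in RD_3 alone. Hk1, the hexokinase of most tissues, had islands of 2000 and 1600 bp in SD_2 and SD_3, 3000, 2000 and 2000 bp in HF and 2000, 1800 and 1600 bp in RD. No CR or YD mouse had an Hk1 island, so YD and RD did not overlap. These islands all lay at the start printed above, and the start at 62379908 of the same gene was marked in 0 libraries. Hk2, the insulin-responsive hexokinase of muscle and fat, had islands of 4000, 1600 and 3000 bp in the HF mice and 3600 bp in CR_1 and was unmarked in the other 11 libraries. Gckr, which restrains glucose phosphorylation in hepatocytes, was marked in HF_1 (3000 bp) and HF_3 (3800 bp) only. Those islands also lay at a TSS of the neighbouring gene Fndc4. Hk3, a hexokinase of blood cells, had 3200 bp in CR_1 and 600 bp in HF_1.

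The bifunctional enzymes that make and break fructose 2,6-bisphosphate, the signal that opens glycolysis and closes gluconeogenesis, ranged from 2 to 15 libraries. Pfkfb2 was marked in all 15 and had the highest score of the 47 genes in rank, with a median percentile of 97.9. Pfkfb1, the liver form, had an island in 1 SD mouse, in all 3 CR and all 3 HF mice and in no YD or RD mouse, and 3 of these 7 islands also lay at a TSS of the neighbouring gene Apex2. Pfkfb3, the inducible form, was marked in 1, 2, 3, 0 and 1 mice of SD, CR, HF, YD and RD. Pfkfb4 was marked in HF_1 (1600 bp) and HF_3 (2600 bp) only. For lactate dehydrogenase, Ldha was marked in every library, and Ldhb, the heart subunit, in CR_2, HF_1 and HF_3.

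The gate of pyruvate into the mitochondrion was marked at its transport and catalytic steps. Mpc2 had the widest islands among the 10 genes marked in every library, with 7400, 6000 and 6400 bp in the HF mice and 7000, 4600 and 4800 bp in the SD mice. The CR islands were 1200, 5400 and 5600 bp wide, the YD islands 7600, 4400 and 1000 bp and the RD islands 1600, 5200 and 2800 bp. The narrowest HF island was wider than 10 of the 12 islands of the other diets, and CR_1, YD_3 and RD_1 had the narrowest. These widths are of the highest-scoring island, and in some libraries the region around the Mpc2 start was split. CR_1 had a further island of 2600 bp there, RD_1 had 1000 and 800 bp, RD_3 had 1800 bp and SD_3 had 600 bp. The YD_3 island ended 860 bp upstream of the RefSeq start. Mpc1 was steadier, with 1600 to 4400 bp and a median of 3200 bp. Dlat, the acetyltransferase of the dehydrogenase complex, was marked in all 15 libraries, Pdhb and Dld in 13, and the X-linked Pdha1, the regulated subunit, in 8. Among the kinases, Pdk2 was marked in 13 libraries and Pdk4, the kinase induced by fasting, in 11. Pdk4 had islands of 2600, 1800 and 2200 bp in SD, 2000 and 2200 bp in CR_2 and CR_3, 1800, 600 and 1800 bp in HF, 2200 bp in YD_1, and 1200 and 2200 bp in RD_1 and RD_2. Pdk1 was marked in 6 libraries, none of them YD or RD, and Pdk3 in HF_1 (2000 bp) and HF_3 (3200 bp).

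Glycogen phosphorylase of the liver (Pygl) was marked in every library but CR_1, with 600 to 3600 bp, whereas liver glycogen synthase (Gys2) had an island in CR_3 (3200 bp) and HF_1 (2000 bp) alone. Khk, which phosphorylates fructose, missed YD_3. The acylphosphatase Acyp1 had islands of 1400, 400 and 1600 bp in SD, 1200, 800 and 1000 bp in HF and 2400 bp in both CR_2 and CR_3, and none in CR_1 or in any YD or RD mouse. The highest-scoring island lay at the start printed above in SD_1, SD_2 and the HF mice and about 8 kb upstream, at a start shared with Zc2hc1c, in SD_3, CR_2 and CR_3. Acyp2 was marked in 2 SD, 2 CR and 3 HF mice and in 0 YD and RD mice. Mdh1 and Mdh2, the cytosolic and mitochondrial malate dehydrogenases, were marked throughout. Over the pyruvate gate of 10 genes, the share of pairs with an island was 96.7% for HF, 80% for CR and 76.7% for SD, against 66.7% for RD and 50% for YD, as the plot of shares by role shows.

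**Figure D4:**
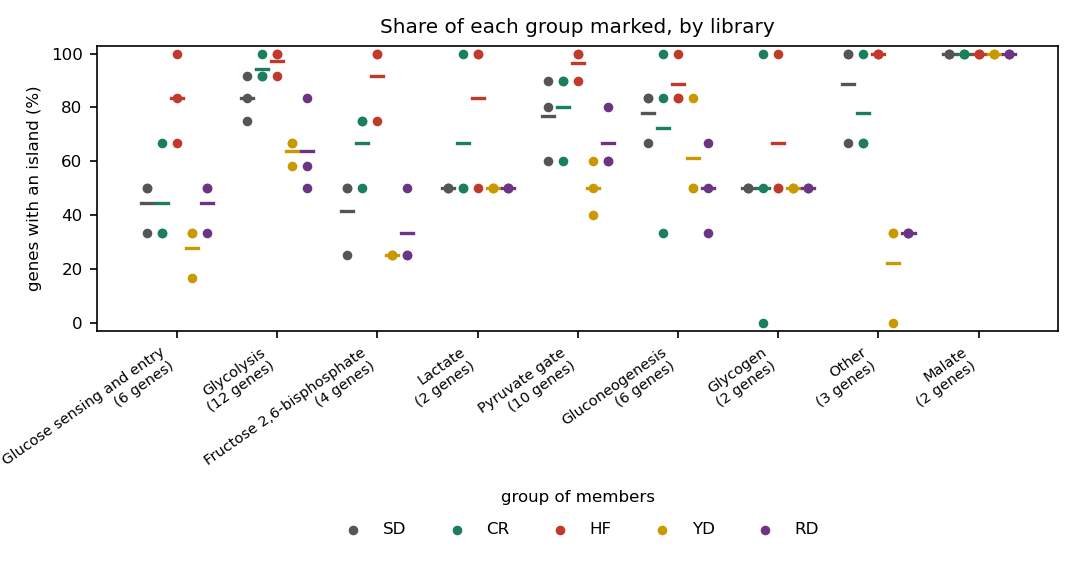
Share of the genes of each role with an island (vertical axis, %) in each library (points, coloured by diet, 3 mice each, with coinciding points overlapping) and the mean of the diet (bars). Malate dehydrogenases are at 100% in every library, and YD and RD are lowest, at 22.2% and 33.3%, for the group of Khk, Acyp1 and Acyp2.

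The presence of an island was tested over the 5 diets for every protein-coding gene marked in 1 to 14 libraries, to ask whether diet set which promoters were marked. Of 10985 genes, 0 passed (0% called, Fisher-Freeman-Halton exact test, Benjamini-Hochberg adjusted p, lowest 0.259). The 10985 include all 37 genes of the list that could be tested. The lowest exact p of any gene was 0.0020, so a gene could pass only if many others lay at that value too. The 0 therefore cannot show that diet left presence unchanged. Among the 37, genes marked in 2 or 13 libraries had an exact p of at least 0.143 and could not reach 0.05 even unadjusted. Nor could genes marked in 14, whose 1 unmarked library gives the same p in any diet. At an unadjusted p under 0.05 the test gave 1233 genes (11.2%) and 4 of the 37, which were Hk1, Pfkfb1 and Acyp1 (exact p = 0.0140 each) and Hk2 (exact p = 0.0440). For Pck1 and for Pklr the exact p was 0.1099. The share of the 37 is close to that of all genes.

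Between pairs of diets, 3 mice against 3 cannot give an exact p under 0.1, so genes were only counted where a diet had an island in all 3 mice and the other diet in 0, among the 13044 genes marked in at least 1 library. For RD against SD, the comparison of purple corn with the standard diet, 3 of the 47 genes (Pck1, Pklr and Acyp1, 6.38%) were marked in SD alone, beside 1.76% of all genes, and 0 in RD alone, beside 0.046%. Each of the 3 lacked the island in both RD libraries with the ChIP form of name as well as in RD_1. Of the 6341 genes marked in all 3 SD mice, 3.61% had no island in RD, and of the 27 among the 47 genes, 11.1%. When the 7825 highest-scoring islands of each list were compared, 0 of the 3 remained, with islands at Pck1 and Acyp1 in 2 SD mice and at Pklr in 0. With at least 2 of 3 SD mice, Pkm and Acyp2 joined (10.6%, beside 6.53% of all genes). Pck1 was not among the genes when the island had to cover a TSS (1 SD mouse), nor was Acyp1 when islands under 600 bp were left out.

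For YD against SD, Acyp1 was the only gene of the 47 marked in SD alone (2.13%, against 5.83% of all genes), a share under the background, and 0 were marked in YD alone, beside 0.00767%. With at least 2 of 3 SD mice they were Hk1, Pfkl, Pdha1, Acyp1 and Acyp2 (10.6%, beside 15.8%). Acyp1 dropped out when each list was cut to the same number of islands and when islands under 600 bp were left out. Without YD_1, which is the deepest library and holds the fewest islands, the genes would be Pklr, Pck1, Pdk4 and Acyp1, without SD_3 Pfkl, Pdha1, Acyp1 and Acyp2, without SD_1 Hk1 and Acyp1, and without YD_3 Pdk2 and Acyp1. For RD against YD, which sets the corn with anthocyanins against the corn without, Hk1 was marked in RD alone (2.13%, against 1.82%) and 0 in YD alone, beside 0.046%. With at least 2 of 3 RD mice Pfkl joined (4.26%, beside 6.36%). Hk1 no longer met the rule when the lists were cut to the same number of islands. Without YD_3, Pdk2 was counted beside it, and without RD_3, Pfkl. Leaving out a mouse loosens the rule, and the share of all genes that meets it was then not computed. The counts without a mouse therefore have no background.

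For HF against SD, Hk2 was the only gene of the 47 marked in HF alone (2.13%, against 3.04%), and 0 were marked in SD alone, beside 0.0153%. With at least 2 of 3 mice in place of 3, Gckr, Pfkfb4, Ldhb and Pdk3 joined Hk2 (10.6%, against 7.83% of all genes), and each of those 4 rested on HF_1 and HF_3, the libraries with islands at 16 and 8 of the 28 markers of other liver cells. Hk2 was also marked in HF_2, where 3 of the 28 were. When the 7825 highest-scoring islands of each list were compared, Hk2 no longer met the rule, with an island in 1 HF mouse, and Pfkfb3 was the 1 gene marked in HF alone. The part of these cells in the islands was not tested. Leaving out SD_2 gave Hk2, Pfkp, Pfkfb1, Pgk1 and Pdk1, leaving out HF_2 the same 5 genes as the rule of at least 2 mice, and leaving out SD_1 Hk2 and Pfkfb3. For CR against SD, 0 of the 47 differed in either direction, beside 0.521% of all genes marked in CR alone and 0.0307% in SD alone. With at least 2 of 3 SD mice, Hk1 was marked in SD and not in CR (2.13%, beside 0.56%). Without SD_1 the count was 1 (Hk1, unmarked in CR), and without SD_2 it was 3 (Pfkp, Pfkfb1 and Pgk1, marked in CR). For the counts without a mouse, the share of all genes was again not computed. The comparisons with SD share the same 3 SD mice. In CR the library CR_1, the shallowest of the series, marked 30 of the 47 genes and differed from CR_2 and CR_3. It lacked islands at Pck1, G6pc, Fbp1, Pygl, Pklr, Pdk4, Acyp1, Pfkfb3, Pdha1 and Pdk1, which CR_2 and CR_3 both had. Hk2 and Hk3 had islands in CR_1 and in neither of the others.

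The width of the islands and the rank of their scores were compared over the 2059 genes marked in all 15 libraries, which leaves 10 of the 47. This filter asks the same of every diet, but it drops genes that lost their island in any library. Pck1, Pklr and Acyp1 are among those dropped, so these tests cannot show such a loss. Their median width was 3200 bp against 2400 bp over all 2059, and 7 of the 10 were wider than the median gene. Mpc2 was the widest with a median of 5200 bp, followed by Gapdh and Mdh1 with 3400 bp. Eno1 was the narrowest with 2000 bp, after Ldha and Dlat with 2200 bp and Mdh2 with 2600 bp. Their scores had a median percentile of 93.8 against 88.8, with Pfkfb2 at 97.9, Ldha at 95.8, Gapdh at 95.4, Mpc2 at 95.1 and Mpc1 at 93.8. For 5 of the 10 (Pfkfb2, Aldoa, Mdh1, Mdh2 and Mpc2) the island also lay at a TSS of a neighbouring gene in all 15 libraries, and what each gene adds cannot be told apart.

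**Figure D5:**
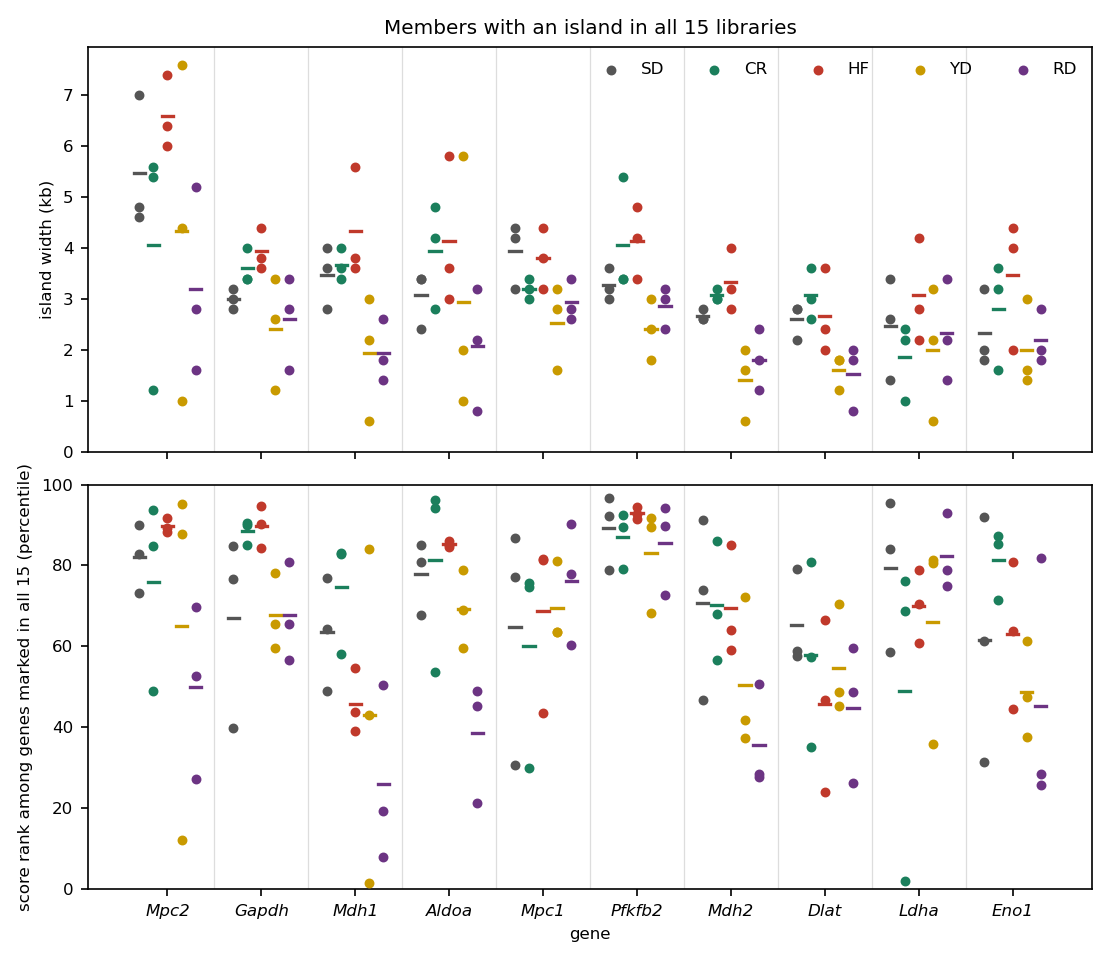
Width in kb of the highest-scoring island (top) and its score rank as a percentile among the 2059 genes marked in every library (bottom) for the 10 genes with an island in all 15 libraries. Points are mice, bars are means of 3 mice, and colours are diets. The 3 RD ranks of Aldoa, between 21.3 and 49.0, lie below all its other points, and Mpc2 ranges from 1 to 7.6 kb.

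Over all 2059 genes, islands were narrower in YD and RD than in SD before the lists were centred, with a median log2 difference of -0.49 in YD and -0.29 in RD and, for the 10 genes, of -0.60 and -0.52. CR and HF islands were wider, by 0.14 and 0.34 over all genes and by 0.21 and 0.32 for the 10. After each list was centred on its median width, 0 of the 10 genes passed in any comparison by limma (adjusted p under 0.05, lowest 0.670), beside 1 of 2059 genes (0.0486%) over the 5 diets, 0% for CR, HF and YD against SD and for RD against YD, and 0.0486% for RD against SD. At an unadjusted p under 0.05 the count over the 5 diets was 151 of 2059 genes and 0 of the 10. The centred log2 differences of Mpc2 from SD were -0.84 ± 0.49 (SE) in CR and -0.60 ± 0.49 in RD, and those of Mdh1 were -0.55 ± 0.37 in YD and -0.56 ± 0.37 in RD (n = 3 mice per diet). The Mpc2 values take only the highest-scoring island where the region was split, as in CR_1, RD_1 and RD_3.

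By the rank of the score, which does not depend on the length of the list, 0 of the 10 passed either (limma, lowest adjusted p 0.264), beside 10 of 2059 genes (0.486%) over the 5 diets. Of the contrasts, 0.194% of genes passed for CR against SD, 0.0486% for each of HF, YD and RD against SD, and 0.0971% for RD against YD. At an unadjusted p under 0.05 there were 202 genes over the 5 diets, with Aldoa among the 10. Aldoa, which splits fructose 1,6-bisphosphate in most tissues, ranked at the 85.1, 67.8 and 80.9 percentile in the SD mice and at 21.3, 45.3 and 49.0 in the RD mice. All 3 RD mice ranked below all 3 SD mice for 5.29% of the 2059 genes and, among the 10, for Aldoa and Mpc2. Aldoa differed by -39.4 ± 11.4 percentile points (SE, limma, unadjusted p = 0.00455, adjusted p = 0.357), where 133 of 2059 genes (6.46%) had an unadjusted p under 0.05, and RD was -30.6 ± 11.4 points from YD (limma, adjusted p = 0.527). Mdh2 ranked at 46.7, 74.0 and 91.4 in SD and at 27.6, 50.7 and 28.4 in RD, and these ranges overlap (difference -35.1 ± 13.4, limma, adjusted p = 0.656). Over the 10 genes, the median difference of rank from SD was -18.3 points for RD, -11.6 for YD, -1.31 for CR and 2.58 for HF. Over all 2059 the medians were 0, 0, -0.34 and -0.06. They lie near 0 by construction, because the ranks are taken among these same genes, and so give no background. Whether other genes of like rank shifted as much was not tested.

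Promoter sequence was summarised over the 300 bases from 250 before to 50 after each RefSeq start, which matched 46 of the 47 genes. The median CpG count was 18, against 14 over 16433 protein-coding genes, and it was 21 for the 10 genes marked throughout, 18 for those in 3 to 14 libraries and 9 for 5 of the 6 marked in 2. Spearman's rho between the number of libraries marked and the observed to expected CpG ratio was 0.05 over the 46 genes (a description, as the libraries are shared by all genes). Fbp1 (6 CpGs), Slc2a2 (2) and G6pc (4) were marked in 13 or 14 libraries on CpG-poor promoters, while Pdk3, with 35 CpGs, was marked in 2. Motifs were searched on both strands, and a gene counted when any of its RefSeq starts had a match, so genes with several starts had more chances. The GC box GGGCGG was found for 69.6% of the 46 genes against 51.3% of all. The E-box CACGTG was found for 15.2% (7 genes) against 9.22%, and the TATA box TATAAA for 8.70% (4 genes) against 14.3%. In the 250 bases printed above, the GC box was present at Pck1, Acyp1, Hk2, Fbp1 and Mdh1 and the other motifs at none of the 8. The second Pklr start, which is not printed, had a TATA box in its 300 bases. A match is a string of letters and not a measured site.

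The wider pathway was followed in 72 further genes of glycolysis, glycogen, the pentose phosphate route, galactose and pyruvate use, all of which were in the annotation. Of these, 13 (18.1%) were marked in all 15 libraries, among them the aminotransferases Got1 and Got2, the dehydrogenase subunit Pdhx, the glucose-1-phosphate uridylyltransferase Ugp2 and the glycogen targeting subunits Ppp1r3b and Ppp1r3c. Another 10 were marked in none, including the isozymes of other tissues Eno2, Ldhc, Pgam2, Pgk2 and Fbp2. By the rule of 3 mice against 0, 2 of the 72 were marked in SD and not in YD, beside 5.83% of all genes. The percentages here are of the 13044 genes marked in at least 1 library, whereas the 72 include the 10 marked in none. They were Slc2a8, a glucose transporter, and Slc16a1, a lactate and pyruvate transporter. Galm, which interconverts the forms of galactose, was the 1 gene of the 72 marked in RD and not in YD, beside 1.82%. For CR, HF or RD against SD, 0 of the 72 differed in either direction, beside 0.552%, 3.06% and 1.8% of all genes. By limma, 0 of the 13 marked throughout passed in width or score rank. Mlxipl, the glucose-responsive factor that acts on Pklr, was marked in 3 SD, 2 CR, 3 HF, 2 YD and 2 RD mice.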

How the data were processed

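H3K4me3 PAT-ChIP-seq islands of 15 mouse livers were analysed. Reads of 50 bp were mapped to mm10 by the authors using BWA, filtered with SAMtools (MAPQ of at least 1, no duplicates, standard chromosomes) and passed, library by library, to SICER2 (window 200 bp, gap 400 bp, fragment 200 bp, FDR 0.05). Replicates were not pooled. The deposited lists give the start and end of each island and a score, which is not scaled between libraries and was ranked only within a list. Coordinates are 1-based.

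Groups came from the labels, and the 3 mice of a diet are separate animals. TSSs were those of GENCODE M21 (139486 transcripts, 53843 genes). Of the 2 protein-coding entries named Aldoa, the one with more transcripts was used. The genes and the lists of other genes and markers were chosen with earlier results of these data known. Presence was compared by the Fisher-Freeman-Halton exact test over the 10985 genes marked in 1 to 14 lists, and centred log2 width and score percentile by limma 3.58.1 in R 4.3.3 over the 2059 genes marked in all lists, with a threshold of 0.05 on the Benjamini-Hochberg adjusted p. Python 3.11.15 with pandas 2.3.3 and scipy 1.17.1 was used for the rest. Both tests were checked on simulated data. The depth of each library was computed from the scores of islands of 1 window, taking an effective genome fraction of 0.74, and the read numbers lay within 0.000704 of a whole number. Named genes were those called by any rule, the widest and narrowest and the highest in score among those marked throughout, those in 2 lists or fewer, and Pck1, G6pc, Fbp1, Pklr, Gckr, Slc2a2, Gys2, Pygl, Pdk4, Mpc1, Mpc2 and Pcx. Alternatives were a TSS inside the island or within 3 kb, the 7825 highest-scoring islands of each list, islands of at least 600 bp, at least 2 of 3 mice, genes marked in at least 8 lists, uncentred or summed width, other score scales, the form of library name, the omission of each mouse and a replicate block. The promoter sequences are from RefSeq on GRCm38.p6. Read counts were not used here, so no counting error is given.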

Additional observations from a re-analysis of the deposited data

How the results depend on the processing

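Under every alternative run, 0 of the 47 genes passed the presence test over 5 diets, and 0 passed any width or score rank test. For presence this 0 carries little weight, because the lowest exact p of any gene in the main setting was 0.0020. The counts of genes marked in every mouse of a diet and in 0 of another moved more. Requiring at least 2 of 3 mice gave 5 genes for each of HF, YD and RD and 1 for CR against SD, and 2 for RD against YD. With the 7825 highest-scoring islands of each list the counts were 0 for YD and 0 for RD against SD and 0 for RD against YD, while HF against SD gave 1 gene, Pfkfb3, in place of Hk2. The mean number of genes marked was then 30.3 in HF, 27.7 in CR, 26 in SD and 20.3 in RD, beside 36.3%, 32.1%, 30.7% and 21.3% of all protein-coding genes. Islands of at least 600 bp gave 0 for YD against SD. A TSS inside the island gave 3 genes for HF against SD (Hk2, Pfkfb3 and Pcx) and means of 19 in YD and 21.3 in RD. For RD against SD that setting also gave 3, with Gcgr in place of Pck1. With each mouse left out in turn, the counts against SD ranged from 3 to 4 for RD, 1 to 4 for YD, 1 to 5 for HF and 0 to 3 for CR and from 1 to 2 for RD against YD, and the mean number of genes marked from 41.5 to 45.5 in HF, 34 to 38.5 in CR, 31.5 to 35.5 in SD, 23.5 to 28 in RD and 22 to 24.5 in YD. Apart from the rule of at least 2 of 3 mice, no share of all genes was computed for the altered counts between pairs of diets. Those counts cannot be set against a background. The cause of these shifts was not tested, beyond the smaller number of islands or mice.

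Same-numbered mice did not deviate together. The correlation over pairs lay between -0.07 and 0.08 with 0 of 30 pairs over 0.1, and 5 of 15 libraries were closest to their own number, so the numbers were taken as names. With the replicate block, 0 genes of the 47 passed, and at an unadjusted p under 0.05 the presence test gave 847 genes and 3 of the 47, against 1233 and 4 without the block. The lists hold no read counts, so depth limits what an absent island can show, and with 3 mice per diet no single pair of diets can pass an exact test at 0.05.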
